A study of Mus musculus with 2 samples.

Results

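The miRNAs described here are miR-682 to miR-721 of the mouse, a block of the miRBase catalogue assigned to small RNAs sequenced from mouse embryos. They were chosen by name, as every mature probe from mmu-miR-682 to mmu-miR-721, any letter and either arm, with earlier results of these data known. There were 41 such probes for 34 numbers among the 1265 mature miRNA probes of the array. The array data came from total RNA of embryoid bodies, suspension aggregates of mouse embryonic stem cells, collected on day 10 and on day 0 of differentiation. Both samples came from 1 mouse embryonic stem cell line, ATCC CRL-1934, whose strain is 129S2/SvPas. The medium held 15% FBS (fetal bovine serum) and the dishes were of ultra-low attachment, and no transgene or drug is named for either day. Each day had 1 Cy5 array for miRBase release 19.0, so nothing below has a replicate check, and errors are SDs over the 3 spots of a probe, which are technical. The cells were labelled embryonic stem cells on both days. The miRNAs that mark these cells, miR-290 to miR-295, had 13 of 14 probes detected on day 10 and 13 of 14 on day 0, with a summed signal of 66276 on day 10 and 81980 on day 0. The sums are scanner signal before any scaling, and 675 of all 739 detected probes were dimmer on day 10. After the normalization used below, the log2 differences of the 14 probes, day 10 minus day 0, ran from 0.074 to 1.31, relative to the bulk of the arrays. This is 1 set of miRNAs, and it does not show how far the cells of either day had differentiated.

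A miRNA is normally cut from a hairpin transcript by Drosha and Dicer, and 1 or both arms of the hairpin enter an Argonaute protein, which pairs with target messages mainly through the seed, bases 2 to 8. The embryo catalogue holds well established miRNAs such as miR-708, a conserved product of the Tenm4 gene, beside entries whose letters resemble other RNA. The letters of miR-706 and miR-709 resemble the B1 repeat, a short interspersed element of rodents. Mouse miR-712 has been reported to come from a spacer of the ribosomal RNA precursor. An array probe cannot tell a miRNA from a fragment with the same letters.

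The RefSeq table held the mature sequence of 34 of the 41 probes for build GRCm38.p6, each identical to the array's target. The sequences below belong to the probes on which the results turn, written 5′ to 3′ with the seed in capitals. They are the probe with the lowest day 10 value relative to day 0 (miR-706), bright probes (miR-690 and miR-705), further lower probes (miR-691 and miR-700-5p with its other arm), the established miR-708 and the seed-sharing miR-721.
miR-706: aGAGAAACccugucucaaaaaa
miR-690: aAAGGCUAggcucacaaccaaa
miR-705: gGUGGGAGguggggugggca
miR-691: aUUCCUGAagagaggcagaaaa
miR-700-5p: uAAGGCUCcuuccugugcuugc
miR-700-3p: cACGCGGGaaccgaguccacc
miR-708-5p: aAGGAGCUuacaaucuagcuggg
miR-708-3p: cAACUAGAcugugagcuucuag
miR-721: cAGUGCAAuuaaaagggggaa

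In GRCm38.p6, miR-706 lies at chr6:120034290-120034311 on the minus strand, within the span of Wnk1, a kinase gene. miR-690 lies at chr16:28599940-28599961 (minus) within Fgf12, and miR-705 at chr6:85336341-85336360 (minus) within Rab11fip5. miR-691 lies at chr16:74342005-74342026 (minus) within Robo2, an axon guidance receptor gene, and miR-700-5p at chr4:135416601-135416622 (minus) within Rcan3, a regulator of calcineurin. miR-708-5p lies at chr7:96249450-96249472 on the plus strand within Tenm4, a teneurin gene, and miR-721 at chr5:136375777-136375797 (minus) within Cux1, a homeobox factor gene. Of the 34 members with a RefSeq entry, 29 had a locus within the span of a protein-coding gene. They include miR-692, of whose loci only the one in Grik3 lies within a gene. No share is given for other miRNAs, so this count does not set the block apart. The table gives gene bounds without strand, so exon, intron and sense were not used here. miR-684, miR-694, miR-696, miR-709, miR-712 and miR-714 are given by name.

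A miRNA was detected where its median spot signal exceeded a threshold from the 5 blanks of the array, their 95th percentile, which was 71.4 on day 10 and 70.0 on day 0. The day 10 array detected 16 of the 41 members (39.0%) and the day 0 array 25 (61.0%), beside 460 (37.6%) and 713 (58.3%) of the 1224 other mature probes. All 16 were among the 25, so 9 members were detected on day 0 alone and none on day 10 alone. The shares of the catalogue members were thus close to those of the rest of the array on either day. Among 177 probes numbered 5000 and above, a block of later entries, the shares were 26.6% on day 10 and 46.9% on day 0.

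The 16 members detected on neither array were miR-682, miR-683, miR-684, miR-687, both arms of miR-693, miR-694, miR-695, miR-697, miR-698-3p, both arms of miR-701, miR-702-3p, miR-707, miR-708-3p and miR-719. The middle spot of each lay below the threshold of either array, and the blank spots ran from 36.2 to 71.6 on day 10 and from 36.6 to 72.7 on day 0. No difference is drawn from them.

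**Figure D1:**
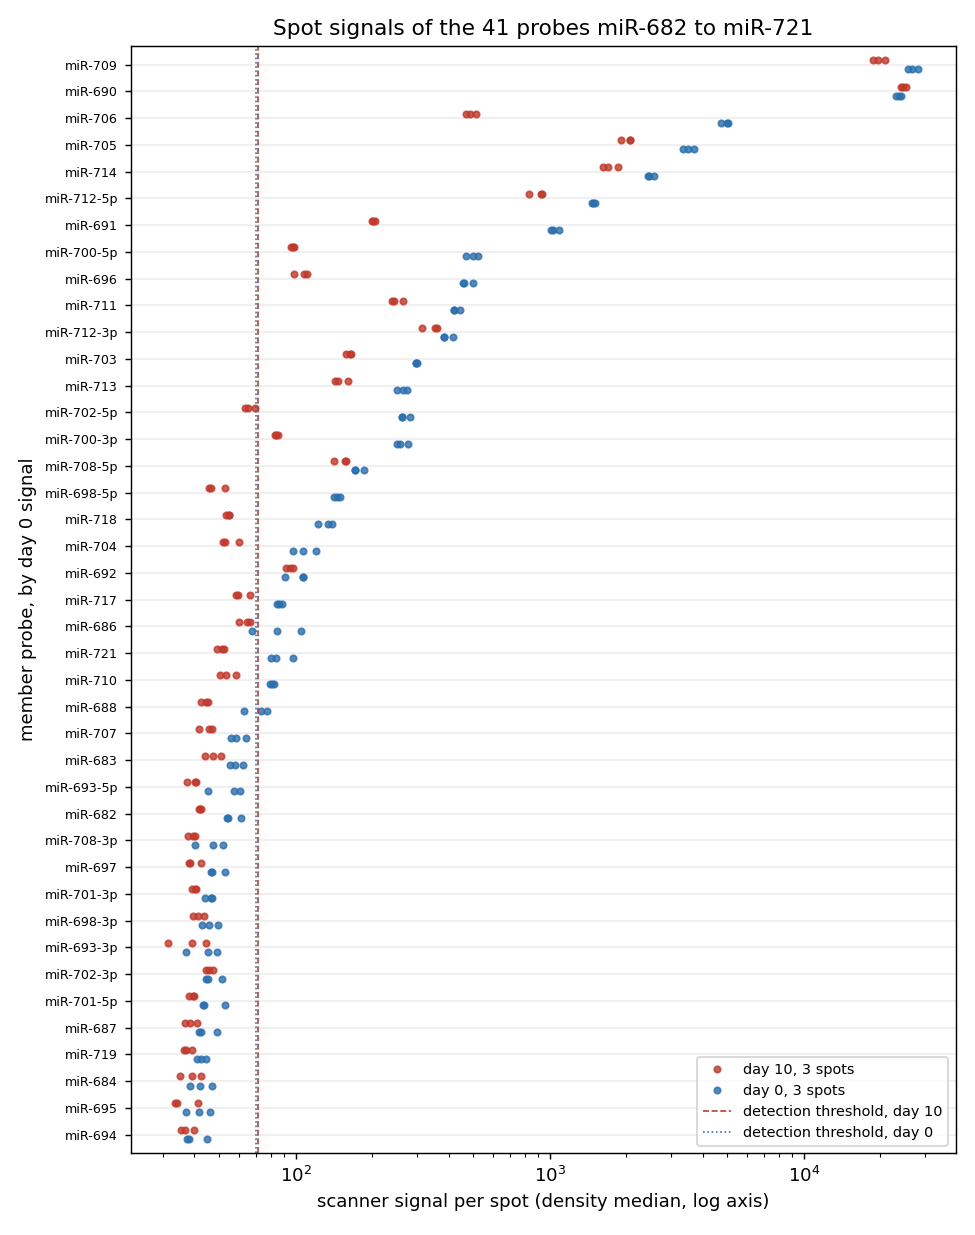
Scanner signal of each of the 3 spots (x axis, density median, log scale) for the 41 members (rows, by day 0 signal), with day 10 in red above day 0 in blue and the detection thresholds as vertical lines. Signals reach 25153 on day 10 and 28154 on day 0, and the red spots of miR-706, miR-691, miR-700-5p and miR-696 lie far to the left of the blue ones.

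In scanner signal, before any scaling, 24 of the 25 detected members were dimmer on day 10 and 1, miR-690, was brighter. The log2 difference, day 10 minus day 0, had a median of -0.75 in these 25, beside -0.78 over all 739 probes detected on at least 1 array. The members thus shared the dimming of the whole day 10 array. The 19 spike-in probes had a median log2 difference of -0.25 in scanner signal and the 5 probes for 5S rRNA one of 0.15. Less of a miRNA per cell and fewer cells that hold it cannot be told apart in such bulk RNA. The values below are after normexp background correction with an offset of 50, log2 and quantile normalization, which set the bulk of the 2 arrays equal. The offset enters every fold given here, so that changes of dim probes are understated.

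After normalization, 4 of the 25 detected members were at least 2-fold lower on day 10 and none was at least 2-fold higher. The background over the 739 detected probes was 77 lower (10.4%) and 50 higher (6.77%), or 17.2% either way. With 75th percentile scaling the split of members was 1 higher and 4 lower, and with an offset of 16 it was 1 higher and 6 lower. The background shares above are of quantile normalization with an offset of 50, and none is given for these other settings. The median difference of the 25 members was -0.0049, beside 0.024 over the 739 probes, with 12 above 0 and 13 below. As a list the members therefore lay at the centre of the array, and the 4 lower members are its tail. They were miR-706, miR-691, miR-700-5p and miR-696.

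miR-706 had spot signals of 469, 488 and 511 on day 10, against 4736, 4987 and 5046 on day 0. The spots of the days lay far apart, the widest separation of any member after normalization. Its level was 9.51 ± 0.058 on day 10 and 11.84 ± 0.052 on day 0 (log2, SD over 3 spots), a log2 difference of -2.33 (SD 0.078) or 5.01-fold lower. It was the only member past 4-fold, beside 7 of the 739 probes (0.947%) that were at least 4-fold lower. Its difference lay between -3.43 and -2.33 over the 9 other settings of correction, scaling and spot summary.

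miR-691 had spot signals of 199, 202 and 206 on day 10, against 1015, 1033 and 1092 on day 0. Its log2 difference was -1.21 (SD 0.058), or 2.31-fold lower, and it stayed past 2-fold in all 9 other settings. The Robo2 gene, within whose span it lies, is known from axon guidance. miR-700-5p had spot signals of 95.8, 98.1 and 98.9 on day 10, against 468, 498 and 522 on day 0, with a log2 difference of -1.20 (SD 0.088) or 2.31-fold lower. It too stayed past 2-fold in all 9 settings. The other arm of that hairpin, miR-700-3p, had 83.2, 83.5 and 85.1 on day 10, against 251, 257 and 277 on day 0. Its difference of -0.58 (SD 0.065) was short of 2-fold. Both arms of miR-700 were dimmer on day 10 in scanner signal with no overlap of spots. Dimmer signal alone does not set them apart, since 675 of all 739 detected probes were dimmer on day 10.

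miR-696, a miRNA studied in skeletal muscle, had spot signals of 98.3, 108 and 111 on day 10, against 457, 462 and 497 on day 0. Its log2 difference of -1.0045 (SD 0.13), or 2.01-fold lower, sat at the threshold. With medians over spots it was -0.93, which is short of 2-fold, and in the 8 other settings it was past 2-fold. Just short of the threshold was miR-702-5p, an arm of a hairpin described as a mirtron, which is released by splicing rather than by Drosha. It had 63.0, 65.1 and 69.2 on day 10, against 263, 264 and 283 on day 0, with a difference of -0.96 (SD 0.092). The day 10 array did not detect it, so it was at least 1.89-fold lower. The other arm, miR-702-3p, had 44.4, 45.5 and 47.2 on day 10 and 44.6, 45.1 and 51.4 on day 0 and was detected on neither array. miR-702 lies within Plod3, a lysyl hydroxylase gene.

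**Figure D2:**
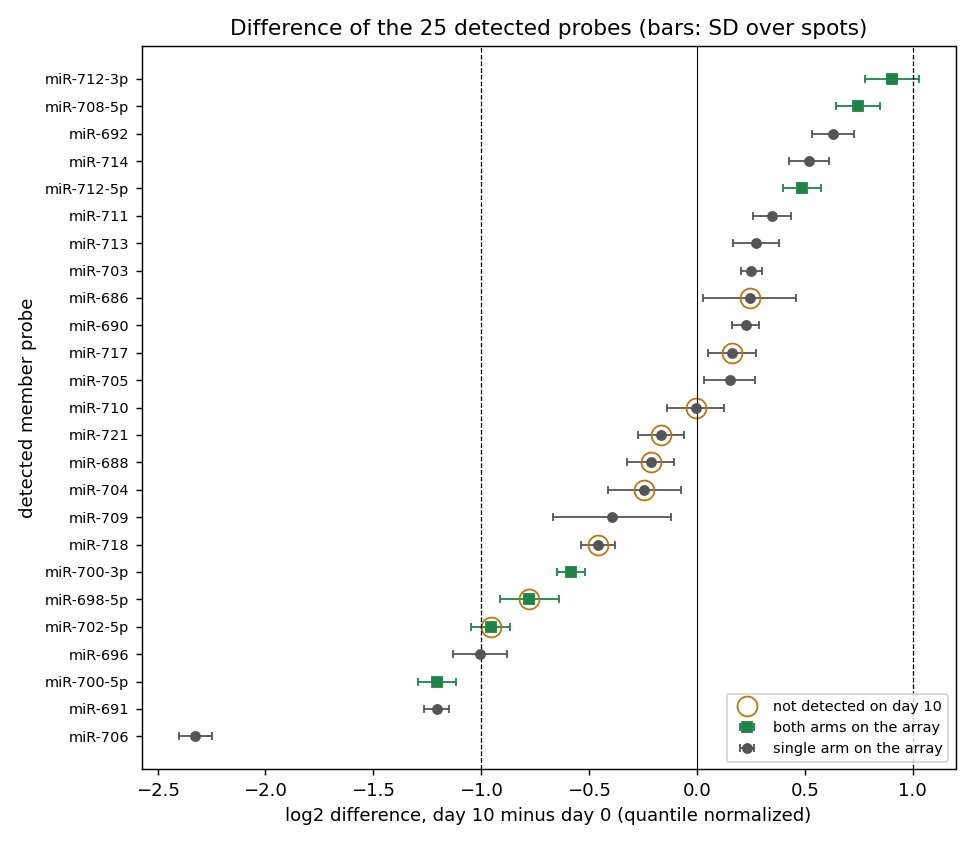
Log2 difference, day 10 minus day 0 after quantile normalization (x axis), of the 25 detected members (rows), with bars for the SD over spots, squares for members with both arms on the array, circles for the others and open rings for those not detected on day 10. miR-706 stands alone at -2.33 and no member passes the dashed line at 1.

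The established miR-708 was measured through both arms. miR-708-5p had spot signals of 142, 157 and 158 on day 10, against 171, 171 and 187 on day 0. The day 10 spots were all dimmer than the day 0 spots, by less than the median probe. Its normalized difference was 0.75 (SD 0.10), short of 2-fold, and it became -0.16 without normalization and -0.31 when scaled to 5S rRNA. The 3p arm, with 37.9, 39.6 and 40.2 on day 10 and 40.3, 47.3 and 51.7 on day 0, was detected on neither array. miR-708-5p shares its seed AGGAGCU with miR-28a-5p, whose difference was 0.22 (SD 0.13).

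The 3p arm of miR-712, reported to come from a ribosomal RNA spacer, had the highest normalized difference of the block. miR-712-3p had spot signals of 314, 355 and 359 on day 10, against 383, 384 and 418 on day 0, and a difference of 0.90 (SD 0.12). miR-712-5p had 832, 926 and 931 on day 10, against 1463, 1486 and 1504 on day 0, and a difference of 0.49 (SD 0.089). Both arms were dimmer on day 10 in scanner signal without overlap of spots, and neither reached 2-fold after normalization. Without normalization they differed by -0.19 and -0.71, in that order, and when scaled to 5S rRNA by -0.33 and -0.86. Scaled to the spike-ins, miR-712-5p was also below 0 (-0.49) and miR-712-3p was at 0.040.

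The brightest members by scanner signal were the same 4 on both days, with miR-712-5p as the other of the top 5 on day 10 and miR-706 on day 0. Signals of different probes reflect binding strength as well as abundance, so these ranks are no order of abundance. miR-690, whose origin is not settled, had 24145, 24575 and 25153 on day 10, against 23033, 23756 and 24216 on day 0. Its spots overlapped between days, and its rank by signal was 2 of 1265 on day 10 and 3 on day 0. The normalized difference was 0.23 (SD 0.064), 1.01 with 75th percentile scaling and -0.088 when scaled to 5S rRNA.

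miR-709, reported in cell nuclei, had 18806, 19537 and 20835 on day 10, against 25735, 26668 and 28154 on day 0, with rank 3 on day 10 and 2 on day 0. Its difference was -0.39 (SD 0.27), 0.51 with 75th percentile scaling. Quantile normalization assigns values by rank, so at the top of the arrays such differences are changes of rank. miR-705 had 1905, 2072 and 2078 on day 10, against 3352, 3487 and 3700 on day 0, and a difference of 0.15 (SD 0.12). miR-714 had 1621, 1701 and 1855 on day 10, against 2434, 2459 and 2565 on day 0, and a difference of 0.52 (SD 0.092). Neither miR-705 nor miR-714 reached 2-fold, and both were below 0 without normalization and when scaled to the spike-ins or to 5S rRNA. miR-705 was also below 0 with cyclic loess.

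**Figure D3:**
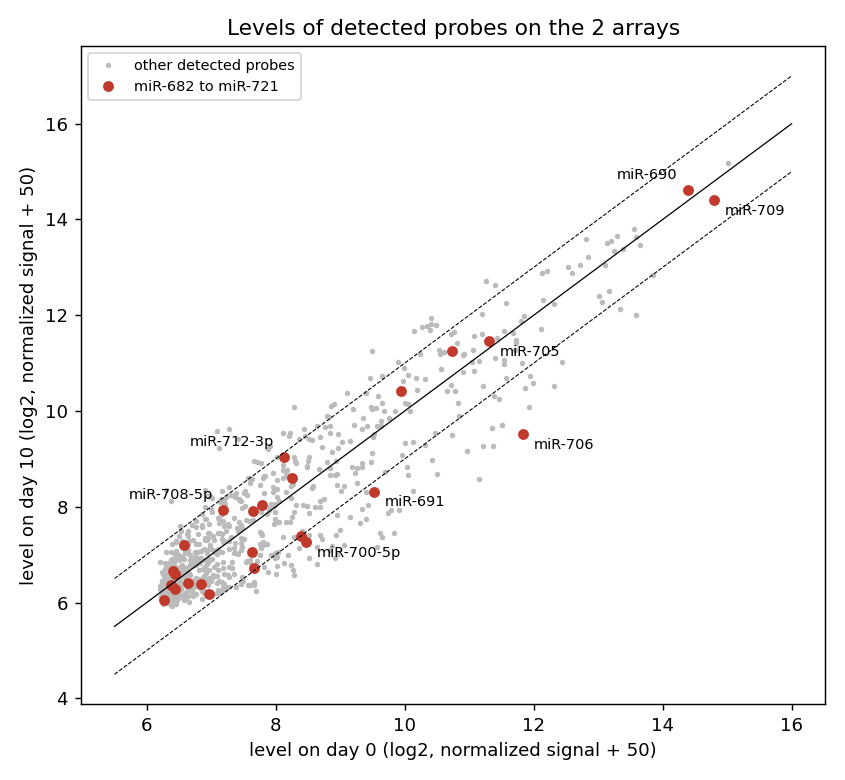
Normalized level on day 10 (y axis) and on day 0 (x axis), log2 of signal plus 50, of the 739 detected probes, with the 25 members in red and the dashed lines at a 2-fold difference. Most members follow the diagonal of the other probes, and of these miR-706 lies farthest below it.

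The remaining detected members had differences within 2-fold. On both arrays, miR-692 was detected with a difference of 0.63 (SD 0.097), miR-711 with 0.35 (SD 0.088), miR-713 with 0.27 (SD 0.11) and miR-703 with 0.25 (SD 0.049). miR-711 lies within Col7a1, the gene of an anchoring fibril collagen. These 4 were below 0 without normalization and when scaled to 5S rRNA, and all but miR-692 also when scaled to the spike-ins. Of the members detected on day 0 alone, miR-698-5p had 45.7, 46.3 and 52.9 on day 10, against 141, 146 and 150 on day 0, and a difference of -0.78 (SD 0.14), at least 1.16-fold lower. miR-718, within the span of the kinase gene Irak1, had a difference of -0.46 (SD 0.080), at least 1.07-fold lower. The other 6, miR-686, miR-688, miR-704, miR-710, miR-717 and miR-721, lay between -0.24 and 0.24 with day 10 signals below the threshold.

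The sign of a difference often rested on the scaling between arrays. Over the 9 other settings, 8 of the 25 members kept their sign, all 8 of them below 0: miR-691, miR-696, miR-698-5p, miR-700-3p, miR-700-5p, miR-702-5p, miR-706 and miR-718. All 12 members above 0 were below 0 in at least 1 setting. The median over all detected probes was -0.63 without normalization, -0.40 when scaled to the spike-ins and -0.77 when scaled to 5S rRNA. It was 0.32 with 75th percentile scaling. The choice of settings thus favours a kept sign below 0. No share of all detected probes that kept their sign is given, so these counts do not set the members apart. Differences after quantile normalization are relative to the bulk of the arrays.

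**Figure D4:**
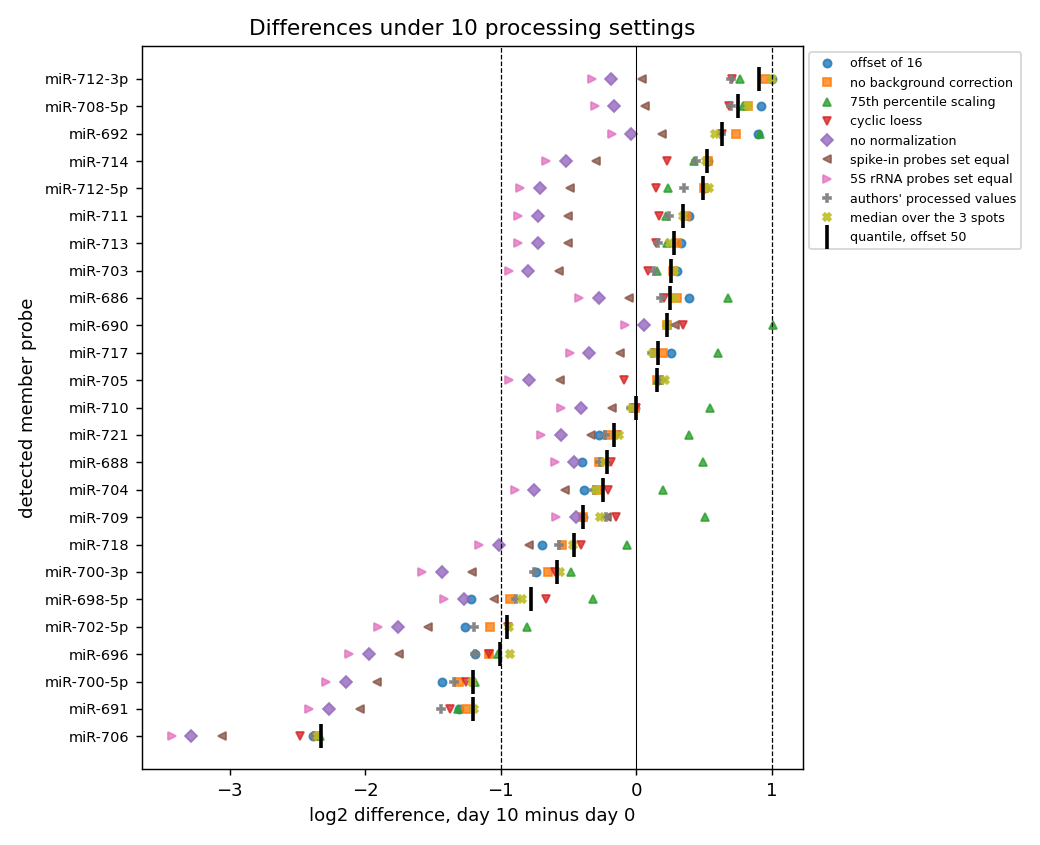
Log2 difference, day 10 minus day 0 (x axis), of the 25 detected members (rows) under quantile normalization with an offset of 50 (black bars) and 9 other settings (symbols), with dashed lines at a 2-fold difference. All symbols of miR-706 lie at -2.33 or below, and the symbols of each of the 12 uppermost members fall on both sides of 0.

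The members also differ in features that their choice did not use, namely whether the array carries both arms of the hairpin, how the hairpin folds, and how often the letters recur in promoters. Both arms were on the array for 7 numbers (miR-693, miR-698, miR-700, miR-701, miR-702, miR-708 and miR-712), giving 14 probes, and a single arm for 27. Of the 14, 7 were detected on at least 1 array, 1 of them at least 2-fold lower. Of the 27, 18 were detected, 3 of them at least 2-fold lower. The median difference was -0.58 over the 7 and 0.074 over the 18, and the sign of either median changed with the filter or scaling. The array background of 10.4% lower corresponds to few probes in groups of this size, and no difference between the groups was tested.

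RefSeq held a hairpin for 29 members, which were folded with ViennaRNA. No fold is given for miR-684, miR-694, miR-696, miR-706, miR-709, miR-714 or either arm of miR-700, miR-708 and miR-712, so the values below do not describe them. The share of mature bases paired with bases outside the mature sequence had a median of 81.8% in members and 81.8% over 931 other probes. In 3 of the 29 members (10.3%) fewer than 50% of the mature bases were paired, beside 4 of the 931 others (0.430%). The 3 were miR-713 with 15.8%, miR-686 with 27.3% and miR-719 with 45.5%, all with a single arm on the array. miR-686 lies within Psmb5, a proteasome subunit gene. The 8 members with a hairpin and both arms ran from 72.7% to 91.3%, with the highest value in miR-693-3p, which lies within Xpo5, the exporter of miRNA precursors. The folding energy per base had a median of -0.35 kcal/mol in members and -0.43 kcal/mol in the others.

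Recurrence of the letters was counted in 32851 RefSeq promoter windows of 300 bases, as windows with an exact match, on either strand, to any 14-base stretch of the target. Members with at least 10 windows were miR-706 with 62 (0.189% of windows), miR-709 with 49 (0.149%) and miR-705 with 18 (0.0548%). That is 3 of 41 members (7.32%), beside 57 of the 1224 other probes (4.66%). All 3 were detected on both days, and their median difference was -0.39, the value of miR-709. The next were miR-698-5p and miR-700-5p with 7 windows each, miR-691 and miR-703 with 5 and miR-690 and miR-713 with 4. miR-708-5p had none. A match says that the letters recur, not where the measured RNA came from.

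**Figure D5:**
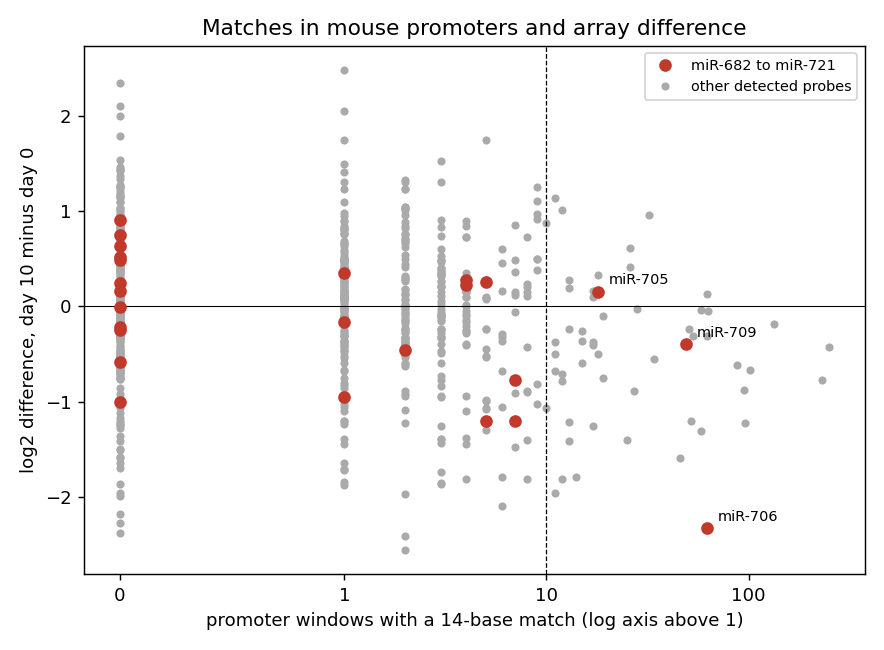
Number of promoter windows with an exact 14-base match (x axis, log scale above 1) and log2 difference, day 10 minus day 0 (y axis), of the 739 detected probes, with the 25 members in red. miR-706 with 62 windows and -2.33 is the lowest of the probes to the right of the dashed line at 10 windows.

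Across the 25 detected members, the number of promoter windows had a Spearman rho of -0.47 with the log2 difference and 0.54 with the day 0 signal. Over all 739 detected probes the values were -0.18 and 0.26. GC content had a rho of 0.11 with the difference in members and -0.26 over all detected probes. These are descriptions across probes that share 2 arrays and parts of their base composition. The longest stretch that a member's target shared with the target of any other probe was 11 bases, for miR-697 with miR-6392-5p and for miR-711 with miR-5122.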

How the data were processed

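The deposited scanner files give spot intensity as a density median on a linear scale, per the file headers. Background subtraction or normalization by the authors is not given in the sources used here. The authors' deposited table of processed intensity per probe, whose background treatment and scaling are likewise not given, entered as an alternative (log2 of value plus 50). All 3968 spots entered normexp (limma 3.58.1, R 4.3.3, offset 50). After log2, the 3795 mature spots were quantile normalized, and each probe's level is its mean over 3 spots. The SD of a difference is the root of the summed squares of both spot SDs. A difference was counted at 2-fold where the brighter array detected the probe. A probe that the dim array did not detect has the fold against the higher of its own level and the lowest detected level there. Such a floor holds within quantile normalization with an offset of 50 only. With 75th percentile scaling the difference was -0.81 for miR-702-5p and -0.067 for miR-718. No test was run, since each day has 1 array, and the number of arrays limits the precision. Spot values are given for members past 2-fold, the 5 brightest per array, both arms of miR-708 and members of known or disputed origin. Others named with spot values were chosen after their values were seen. The members, lists and settings were chosen with earlier results of these data known. The 75th percentile was taken over all mature spots. Hairpins were folded with ViennaRNA 2.7.2, and sequences are from RefSeq (GRCm38.p6). The steps were tested on simulated data.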

Additional observations from a re-analysis of the deposited data

How the results depend on the processing

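No paired analysis was possible because 1 array was made per day. The 4 members at least 2-fold lower numbered 3 to 6 with other background settings, cyclic loess, the authors' deposited table, medians over spots or 75th percentile scaling, and 4 under the other detection filters. They numbered 8 without normalization, 7 when scaled to the spike-ins, 8 when scaled to 5S rRNA and 1 at 4-fold. At 4-fold the background was 7 of 739 probes (0.947%). Apart from 4-fold, no array-wide share is given for these settings, so the counts do not set the members apart from the array. The median over all detected probes was itself -0.63 without normalization, -0.40 with the spike-ins and -0.77 with 5S rRNA. Members higher numbered 1 with an offset of 16 and 1 with 75th percentile scaling. Doubling the detection threshold left 12 members detected on day 10 and 17 on day 0, again with no array-wide share given.

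The scalings by a constant moved the medians together. Without normalization the medians were -0.73 for members, -0.63 for all detected probes, -1.27 for members with both arms, -0.64 for those with a single arm, -0.79 for repeat-related and -0.72 for other members. Scaled to the spike-ins they were -0.50, -0.40, -1.05, -0.42, -0.57 and -0.50 in that order. Scaled to 5S rRNA they were -0.87, -0.77, -1.42, -0.79, -0.94 and -0.87. With 75th percentile scaling they were 0.22 for members, -0.32 for both arms, 0.31 for a single arm, 0.16 for repeat-related and 0.23 for other members. Relative to all detected probes, the member median was -0.099 in each of these 4 settings, equal by construction.

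The median of members with both arms was -0.74 with an offset of 16, -0.76 in the authors' table, 0.49 with probes detected on both arrays and 0.012 with no detection filter. That of single-arm members was -0.049 with cyclic loess, 0.23 with probes detected on both arrays and 0.19 with the doubled threshold. That of the 3 repeat-related members was -0.15 with cyclic loess, -0.23 in the authors' table and -0.27 with medians over spots. Detection on both arrays gave 0.24 for all members and 0.27 for members that are not repeat-related, and the doubled threshold 0.15 and 0.24. Filters change which probes enter, and other causes were not tested. Signal over background limits the 9 members that the day 10 array did not detect.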

Other observations

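Promoter windows that held a stretch of miR-706 also held stretches of 11 other probes with at least 10 windows. Of these windows, 15 were shared with miR-3470a (24.2% of the 62 of miR-706 and 25.9% of the 58 of miR-3470a), 13 with miR-3470b, 5 with miR-1195, 5 with miR-709 (8.06% and 10.2%) and 3 with miR-1196-5p (4.84% and 21.4%). The other 6 (miR-1186b, miR-1192, miR-3473a, miR-3473b, miR-3473e and miR-669c-3p) shared 1 window each, or 1.61% of those of miR-706. All 11 probes were detected, 5 of them were at least 2-fold lower on day 10 and none higher. The background was 10.4% lower over all 739 detected probes. Among the 55 detected probes with at least 10 windows it was 13 lower and 2 higher, these 5 included. Of the 5 lower, 4 shared more than 1 window and 1, miR-1186b with a difference of -1.25 (SD 0.071), shared a single one. miR-3470a had a difference of -1.31 (SD 0.11), miR-3470b of -1.20 (SD 0.13), miR-1195 of -1.40 (SD 0.15) and miR-1196-5p of -1.79 (SD 0.17). All 11 were below 0 after quantile normalization and 10 with 75th percentile scaling. For miR-709 there were 7 such probes, 6 of them at least 2-fold lower. These 6 were miR-706 itself and the same 5 lower probes named above, so the counts for miR-706 and miR-709 overlap. Among them, miR-1196-5p shared 6 of its 14 windows with miR-709. For miR-705 there were 3 such probes, each with 1 shared window, and 1 of them was at least 2-fold lower. Probes of one repeat are not separate signals, and this grouping was made after the values were seen.

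The seed AGUGCAA of miR-721 is that of the miR-130 and miR-301 family and was carried by 7 other probes. The middle spot of miR-130a-3p read 591 on day 10, against 645 on day 0, with a difference of 1.04 (SD 0.16). That of miR-301a-3p read 152 on day 10, against 155 on day 0, with 1.10 (SD 0.26). The other detected partners were short of 2-fold, with 0.81 (SD 0.14) for miR-130b-3p and 0.34 (SD 0.13) for miR-301b-3p. miR-130c, miR-6341 and miR-6389 were detected on neither array. miR-721, with 51.2 on day 10 and 84.0 on day 0, was not detected on day 10 and differed by -0.17 (SD 0.11). The longest stretch it shared with any of them was 9 bases.

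Among the 5 miR-3473 probes, 4 were detected, and all 4 were below 0 with a median of -0.77. The 1 that was at least 2-fold lower, miR-3473d (-2.17), had 0 promoter windows. The detected ones with at least 10 windows were short of 2-fold, with -0.88 for miR-3473a, -0.66 for miR-3473b and -0.62 for miR-3473e. Across all 55 detected probes with at least 10 promoter windows, 13 were at least 2-fold lower and 2 higher, against 64 lower and 48 higher among the 684 detected probes with fewer windows. The 55 were also brighter, with a median day 0 scanner signal of 3176, against 174 in the 684. The offset understates changes of dim probes, so the 2 groups do not reach 2-fold equally easily. These counts rest on 1 array per day and were not tested.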
